A study of Mus musculus with 4 samples.

Results

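Of the 16449 genes in the count table, 10 are described here: 9 genes that mark microglia and other tissue macrophages, Cx3cr1, Csf1r, Aif1, Tyrobp, Fcer1g, C1qa, C1qb, C1qc and Trem2, together with the lipid carrier gene Apoe. They were selected on their counts, as genes higher in the libraries labelled Tut1 knockout than in the wild-type libraries, so their difference between those groups is given as a description, with no test. The count table did not bear out the label for every gene. Counts of Cx3cr1, Csf1r, Aif1, Tyrobp and Apoe were higher in both knockout libraries than in both wild-type libraries, whereas Fcer1g, C1qa, C1qb, C1qc and Trem2 had at most 6 counts each over the 4 libraries, and the only count of C1qb was in a wild-type library.

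RNA came from micro-dissected dorsal and medial palliums, the embryonic cortex and its hippocampal edge, of mouse embryos at E11.5. Both wild-type (WT) libraries are listed by the study as Tut1 f/f without Cre, although the sample labels name them only as WT. The 2 libraries labelled Tut1 knockout (KO) came from Tut1 f/f;Emx1-Cre embryos, in which Cre is driven in neural stem cells of the pallium and removes exon 2 of Tut1, a uridylyltransferase that extends the 3′ end of U6 snRNA. Because Emx1-Cre is active in the neural lineage, other cells of the dissected tissue, such as microglia and vessels, are background cells in this model rather than the target of the deletion. How many embryos were pooled per library is not stated, so a p-value below measures the spread between these libraries, which may be technical.

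Total counts ran from 305642 to 397150 per library, and 12442 to 13158 genes were detected in each. The study lists total reads per library that far exceed these counts, and the sources used here do not say what became of the rest. Depth in this text means the counts and not the reads sequenced. At this depth 3 counts, the limit that a count of 0 allows, correspond to 7.97 to 10.4 CPM (read counts scaled to a common library size, as for all levels here), with counting error only. Tut1 itself had 6 and 11 counts in the WT libraries against 29 and 25 in the KO libraries (log2 fold change 1.71 ± 0.40 SE, adjusted p = 0.0113, edgeR), so its gene-level count was higher in KO. A gene-level count does not show whether exon 2 is present, so the genotype was not checked. WT replicate 1 was the only library with Xist and without Y-linked counts, which sets it apart by sex from the other 3. The call of Tut1 was lost without WT replicate 1 (adjusted p = 0.133), KO replicate 1 (0.200) or KO replicate 2 (0.160).

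Microglia are the macrophages of the brain. They arise from yolk sac progenitors, enter the neural tube around this stage of development and depend on signalling through Csf1r, the receptor for the cytokines Csf1 and Il34. Tyrobp (also called DAP12) and Fcer1g are membrane adaptors that pass signals from receptors such as Trem2 to the kinase Syk, C1qa, C1qb and C1qc encode the 3 chains of the first complement component, and Cx3cr1 receives the neuronal chemokine Cx3cl1. Apoe carries lipids between cells and is made by glia, by macrophages and by several other cell types, so it is the least specific of the 10 genes.

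To show what the regulatory sequence of these genes holds, the 250 bases before the annotated start were read for the members with a window in the RefSeq promoter table (GRCm38.p6, sequence from RefSeq). The letters searched were GAGGAA on either strand (TTCCTC on the other strand), the core of the purine-rich site bound by PU.1, the product of the macrophage gene Spi1. Matches were in 6 of the 9 windows of 7 members (5 members, of which Apoe had 3 windows), and in 23.3% of all 32851 windows of this length in the table. The windows shown are those of the members with a window and counts in every library, for Apoe that of the most upstream of its 3 annotated starts, and those of the low members whose match lay nearest to the start, 5′ to 3′ on the strand of the gene with the match in capitals.
Aif1 (chr17:35176053-35176302, minus strand): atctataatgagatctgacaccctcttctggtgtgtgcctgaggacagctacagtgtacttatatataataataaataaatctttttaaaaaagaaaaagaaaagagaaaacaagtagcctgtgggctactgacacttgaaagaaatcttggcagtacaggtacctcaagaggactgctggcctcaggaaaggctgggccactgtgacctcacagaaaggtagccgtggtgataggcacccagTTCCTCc
Apoe (chr7:19699189-19699438, minus strand): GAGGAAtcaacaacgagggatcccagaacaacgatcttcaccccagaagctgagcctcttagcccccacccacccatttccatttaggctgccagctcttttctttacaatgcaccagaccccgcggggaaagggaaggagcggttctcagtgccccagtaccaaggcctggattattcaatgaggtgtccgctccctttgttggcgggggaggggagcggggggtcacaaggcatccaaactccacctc
Cx3cr1 (chr9:120068297-120068546, minus strand): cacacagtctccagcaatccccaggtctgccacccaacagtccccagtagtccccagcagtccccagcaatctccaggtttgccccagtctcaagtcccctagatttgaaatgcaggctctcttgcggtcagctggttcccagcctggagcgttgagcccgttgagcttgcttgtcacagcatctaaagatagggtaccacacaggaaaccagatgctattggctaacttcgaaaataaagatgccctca
C1qb (chr4:136886201-136886450, minus strand): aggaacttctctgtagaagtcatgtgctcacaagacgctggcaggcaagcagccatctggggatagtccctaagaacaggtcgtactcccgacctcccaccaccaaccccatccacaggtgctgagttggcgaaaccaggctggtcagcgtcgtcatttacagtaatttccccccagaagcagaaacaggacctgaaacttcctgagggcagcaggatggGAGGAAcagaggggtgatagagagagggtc
Trem2 (chr17:48346151-48346400, plus strand): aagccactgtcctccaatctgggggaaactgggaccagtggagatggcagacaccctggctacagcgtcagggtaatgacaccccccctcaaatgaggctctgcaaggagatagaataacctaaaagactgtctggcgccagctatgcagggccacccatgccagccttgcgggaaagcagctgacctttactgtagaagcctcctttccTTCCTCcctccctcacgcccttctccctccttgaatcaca

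In Aif1 the match lay 7 to 2 bases before the start, in C1qb 30 to 25 bases before it and in Trem2 40 to 35 bases before it. In Apoe a match lay at 250 to 245 bases before the start shown, and another lay 132 to 127 bases before a second annotated start, and the window of the remaining start held none. C1qc held a match 193 to 188 bases before its start. The windows of Cx3cr1 and Fcer1g held none, and no window was used for Csf1r, Tyrobp and C1qa. A match in these letters is a description of the sequence and not a binding site, and the windows with a match belong both to members with clear counts (Aif1, Apoe) and to members with almost none (C1qb, Trem2).

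Among the receptors, Cx3cr1 (ENSMUSG00000052336, chr9:119901616-120069879, minus strand) had 6 and 6 counts in the WT libraries against 32 and 27 in the KO libraries. The KO libraries lay far above the WT libraries with no overlap, and the pair within each group was close. Its level was 17.5 ± 1.0 CPM in WT and 89.4 ± 6.2 in KO (SD, n = 2 each), a ratio of the means of 5.12.

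Csf1r (ENSMUSG00000024621, chr18:61100598-61132149, plus strand), the receptor that microglia need to survive, had 16 and 20 counts in WT against 58 and 34 in KO, or 52.2 ± 5.2 CPM against 136 ± 25.5 (SD, n = 2), a ratio of 2.61. The groups did not overlap, but the KO libraries differed more from each other than the WT libraries did. Of the 5 members with enough counts to be measured, Csf1r had the smallest ratio.

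Aif1 (ENSMUSG00000024397, chr17:35170991-35176068, minus strand) encodes Iba1, the actin-bundling protein used as the standard stain for microglia. It had 9 and 6 counts in WT against 39 and 21 in KO, with levels of 22.0 ± 7.4 and 88.3 ± 21.7 CPM (SD, n = 2) and a ratio of 4.01. The lower KO library still held more than the higher WT library, by 21 counts to 9.

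Tyrobp (ENSMUSG00000030579, chr7:30413760-30417585, plus strand), the adaptor of Trem2, was the least abundant of the 5 by count. It had 1 and 4 counts in WT against 16 and 13 in KO, or 7.10 ± 5.76 and 43.8 ± 1.86 CPM (SD, n = 2). The ratio of the means was 6.17, but it rests on 5 WT counts, and the 95% counting interval of the ratio of summed counts (exact, conditional on their total) ran from 2.30 to 19.9. Its WT mean lay below the limit that a count of 0 allows.

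Apoe (ENSMUSG00000002985, chr7:19696109-19699188, minus strand) had 10 and 15 counts in WT against 61 and 34 in KO. Its level was 36.1 ± 8.2 CPM in WT and 140 ± 31.1 in KO (SD, n = 2), a ratio of 3.88 and a log2 ratio of 1.96. With 1 library left out at a time the log2 ratio ran from 1.71 to 2.20. As for Csf1r and Aif1, KO replicate 1 was the highest library and KO replicate 2 lay between it and the WT libraries.

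**Figure D1:**
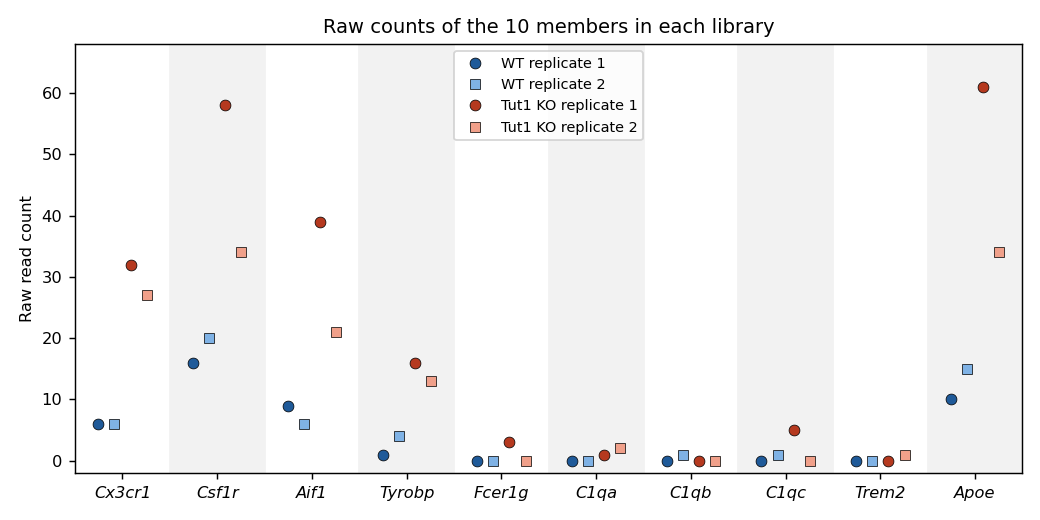
Raw read counts (y axis) of the 10 members (x axis) in the 2 WT libraries (blue) and the 2 KO libraries (red), with circles for replicate 1 and squares for replicate 2. Cx3cr1, Csf1r, Aif1, Tyrobp and Apoe have both KO points above both WT points, from 13 counts in the lower KO library of Tyrobp to 61 in the higher one of Apoe, and the other 5 members lie at 0 to 5 counts in every library.

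The 5 other members were close to absent. Fcer1g (chr1:171229572-171234365, minus strand), the shared signalling chain of Fc receptors, had 0 and 0 counts in WT against 3 and 0 in KO. Trem2 (chr17:48346401-48354147, plus strand), a lipid-sensing receptor that signals through Tyrobp, had 0 and 0 counts in WT against 0 and 1 in KO. Neither can be given a fold change at this depth.

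The complement genes C1qa (chr4:136895917-136898803), C1qc (chr4:136889804-136893065) and C1qb (chr4:136880129-136886187) lie next to each other on the minus strand. C1qa had 0 and 0 counts in WT against 1 and 2 in KO. C1qc had 0 and 1 in WT against 5 and 0 in KO, so that all of its KO counts were in 1 library, and the counting ratio of 5.18 had a 95% interval from 0.580 to 245. C1qb had 0 and 1 in WT against 0 and 0 in KO, opposite to the direction for which the set was chosen. Summed over the 3 genes, C1q had 0 and 2 counts in WT against 6 and 2 in KO. The groups touched, and at this depth a difference in C1q was not detectable.

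Both KO libraries lay above both WT libraries in CPM for 6 of the 10 members, the 5 abundant ones and C1qa. This held for 18.5% of the 15083 genes with at least 1 count, and since the members were chosen for this direction nothing is read from the comparison. Only 5 of the 10 members passed the filter on low counts, and Cx3cr1, Aif1 and Tyrobp, with under 10 counts in each WT library, passed it through the KO libraries alone.

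The members can be ordered by raw counts or per length. A long read stands for about 1 transcript, so raw counts may follow the number of transcripts more closely, and the order depends on the scale. By raw counts over the 4 libraries Csf1r (128) and Apoe (120) were followed by Aif1 (75), Cx3cr1 (71) and Tyrobp (34), with Csf1r ahead of Apoe in WT (36 against 25) and not in KO (92 against 95). Per kilobase of exonic sequence the level was highest for Apoe (56.1 counts per kilobase), followed by Tyrobp (51.0) and Aif1 (49.0). Csf1r (22.2) and Cx3cr1 (15.8) were lower on this scale, and the 5 sparse members lay between 0.202 (Trem2) and 3.43 (Fcer1g). The place of Tyrobp beside Apoe came from the KO libraries: over the 2 WT libraries Apoe had 11.7 counts per kilobase, Aif1 9.79, Tyrobp 7.50, Csf1r 6.23 and Cx3cr1 2.66, and over the 2 KO libraries Apoe had 44.4, Tyrobp 43.5, Aif1 39.2, Csf1r 15.9 and Cx3cr1 13.1. Neighbours in this order such as Tyrobp and Aif1 differ by less than their counting error.

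Summed over the 10 members there were 42 and 53 counts in the WT libraries against 215 and 132 in the KO libraries. The summed level was 138 ± 14.7 CPM in WT and 515 ± 79.8 in KO (SD, n = 2), a ratio of 3.74 and a log2 ratio of 1.90. Without Apoe the ratio was 3.69, from 32 and 38 counts in WT against 154 and 98 in KO. The 4 abundant microglia genes alone, Cx3cr1, Csf1r, Aif1 and Tyrobp, made up 32 and 36 of those WT counts and 145 and 95 of those KO counts. The members' log2 ratio ran from 1.74 to 2.05 with 1 library left out at a time, 1.79 without WT replicate 1 and 1.74 without KO replicate 1. These are bulk tissue libraries, in which more microglia and more RNA per microglial cell cannot be told apart.

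**Figure D2:**
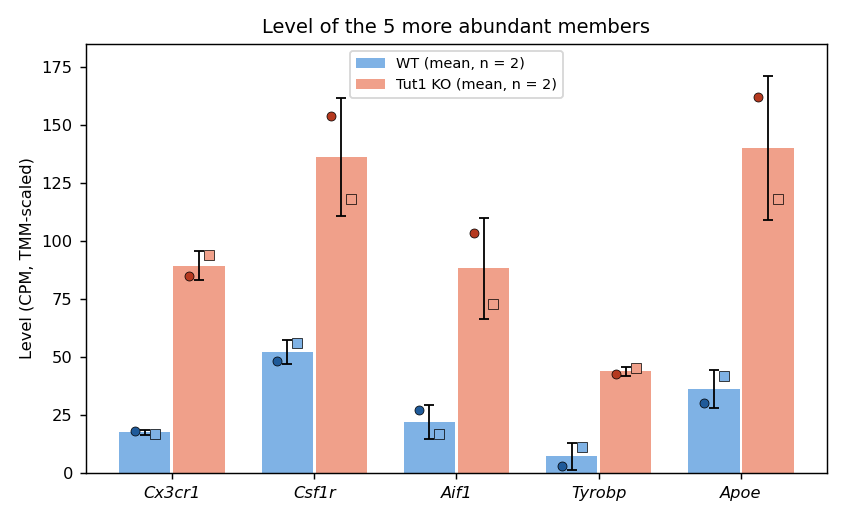
Level in CPM (y axis, TMM-scaled library sizes) of the 5 members with enough counts to be tested (x axis); bars are means of 2 libraries, error bars are 1 SD and points are the libraries, circles for replicate 1 and squares for replicate 2. The WT means run from 7.10 (Tyrobp) to 52.2 CPM (Csf1r) and the KO means from 43.8 (Tyrobp) to 140 CPM (Apoe), with no overlap of points in any of the 5 genes.

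Overlapping gene models bear on the counts of Cx3cr1 and Csf1r, because the sources used here do not say whether counting took account of strand. The Cx3cr1 model spans 9 other genes, and the 3 of them in the table were low. Wdr48 had 9 and 7 counts in WT against 10 and 7 in KO, Gorasp1 had 9 and 3 in WT against 11 and 7 in KO, and Csrnp1 had 2 and 3 in WT against 0 and 1 in KO. Hmgxb3, on the other strand from Csf1r, had 7 and 6 counts in WT against 8 and 6 in KO. Their part in the counts of Cx3cr1 and Csf1r was not tested. Of 16 protein-coding genes that flank the members, chosen after the values were seen, 8 were in the table and 4 were tested. None of the 4 was called by edgeR and 1 had an unadjusted p below 0.05, as 14.2% of all tested genes did. Tomm40, the neighbour of Apoe, had 13 and 10 counts in WT against 11 and 10 in KO.

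The question that follows is whether other genes of macrophages moved with the members. Over all 5878 tested genes, of which 834 (14.2%) had an unadjusted p below 0.05, edgeR called 121 (2.06%) at an adjusted p below 0.05, with 82 higher in KO (1.4%) and 39 lower (0.663%). With libraries scaled by total counts alone the split was 105 higher and 24 lower. A list of 35 further microglia and macrophage genes had 26 in the table, of which 21 had any count and 2 could be tested. Of those 2, Spi1 rose and Lcp1, an actin-bundling protein of leukocytes, did not pass the test; their median log2 fold change was 0.99, beside -0.01 over all tested genes. Spi1, and likewise Dab2, Syk, Ctsd, Grn, Pecam1, Col1a2 and Col3a1 in the lists that follow, had under 10 counts in each WT library and passed the filter on low counts through the KO libraries alone, so a list's count of calls is no support for its direction.

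Spi1 (chr2:91082390-91115756), which encodes PU.1, the transcription factor that macrophages require, had 4 and 1 counts in WT against 17 and 10 in KO. Its level was 7.45 ± 6.59 CPM in WT and 40.0 ± 7.39 in KO (SD, n = 2), a log2 fold change of 2.42 ± 0.65 SE (adjusted p = 0.0335, edgeR). The groups did not overlap. The call was lost with the replicate block (adjusted p = 0.0898) and without WT replicate 2 (log2 fold change 1.70, adjusted p = 0.305), KO replicate 1 (2.20, 0.515) or KO replicate 2 (2.58, 0.209), and without WT replicate 1 the log2 fold change was 3.69 (0.0442). Lcp1 had 13 and 21 counts in WT against 12 and 12 in KO (log2 fold change -0.44 ± 0.41 SE, adjusted p = 0.700, edgeR).

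The remaining genes of this list were too sparse to be tested. Fcgr1, an Fc receptor for IgG, had 3 and 1 counts in WT against 14 and 4 in KO. Olfml3, a secreted protein enriched in microglia, had 4 and 8 in WT against 17 and 6 in KO, with overlapping groups. Runx1, a transcription factor of blood progenitors and early microglia, had 8 and 8 in WT against 12 and 7 in KO.

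Several genes were at 0 in both WT libraries and counted in both KO libraries, at very low numbers. Fcrls, an Fc receptor-like gene of microglia, had 4 and 1 counts in KO, the lysosomal glycoprotein gene Cd68 had 3 and 1, and Laptm5, a lysosomal membrane protein of blood cells, had 2 and 2. The protease gene Ctss had 1 and 1 counts in WT against 5 and 1 in KO, the oxidase subunit Cybb 1 and 0 against 4 and 0, and the Fc receptor Fcgr3 0 and 1 against 2 and 1.

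Other microglia genes were not higher in the KO libraries. P2ry12, the purine receptor of resting microglia, had 4 and 0 counts in WT against 1 and 3 in KO. The actin regulator Coro1a had 6 and 6 in WT against 4 and 6 in KO. Sall1, a transcription factor of microglia that neural progenitors also express, had 8 and 11 in WT against 7 and 6 in KO and was the only gene of the list below both WT libraries in both KO libraries. Adgre1, which encodes the macrophage antigen F4/80, was at 0 in all 4 libraries together with Cyba, Cd86, Irf8 and Cd14, and Tmem119 was not analysed here.

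Summed over the list there were 55 and 63 counts in WT against 112 and 68 in KO, or 171 ± 6.6 CPM against 267 ± 43.5 (SD, n = 2), a ratio of 1.56. The groups did not overlap, and the ratio was smaller than the 3.62 of Cx3cr1, Csf1r, Aif1 and Tyrobp. Both the 4 genes and the list were chosen with results of these libraries known, so the ratios are set side by side without a test.

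Genes of border-associated and yolk sac macrophages, the macrophages of the meninges, the vessels and the early embryo, had 5 and 17 counts in WT against 73 and 20 in KO over the 8 of 10 listed genes in the table. Most of the difference lay in KO replicate 1. Dab2, an endocytic adaptor of these macrophages and of other embryonic cells, had 3 and 9 counts in WT against 36 and 10 in KO (log2 fold change 1.95 ± 0.49 SE, adjusted p = 0.0244, edgeR), and it was the only gene of this list that could be tested. Its log2 fold change was 0.98 without KO replicate 1 (adjusted p = 0.752), 1.42 without WT replicate 1 (0.194), 2.84 without WT replicate 2 (0.00469) and 1.86 with the replicate block (0.0714). Its gene model overlaps 2 models on the other strand.

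Ms4a7, a membrane protein of border-associated macrophages, had 1 and 3 counts in WT against 19 and 4 in KO. The prostaglandin synthase gene Hpgds had 1 and 2 counts in WT against 6 and 4 in KO. The mannose receptor gene Mrc1 had 0 and 0 in WT against 4 and 1 in KO, the chemokine gene Pf4 had 0 and 0 in WT against 4 and 0 in KO, and the hyaluronan receptor gene Lyve1 had 0 and 2 in WT against 2 and 0 in KO. Megakaryocytes also carry Pf4. Of their 5 listed markers, Ppbp, Gp9 and Gp1bb were at 0 in every library. The others together had 0 and 1 counts in WT against 4 and 0 in KO, with those KO counts in the same library as Pf4. The part of megakaryocytes in the Pf4 counts was not tested.

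**Figure D3:**
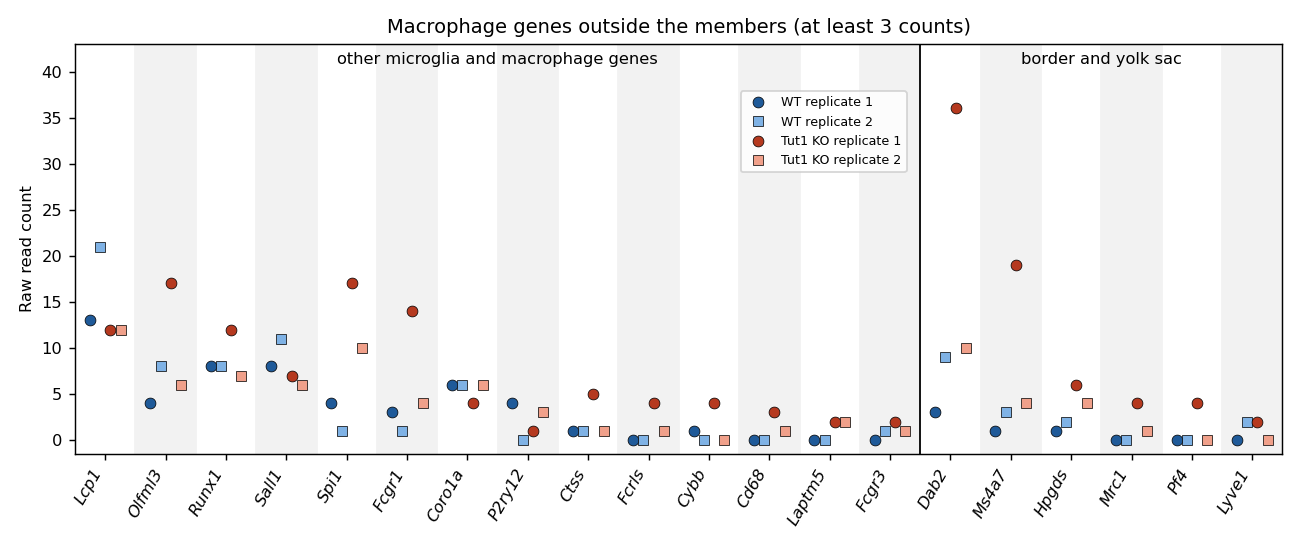
Raw read counts (y axis) of the macrophage genes outside the 10 members with at least 3 counts over the 4 libraries that are described in the text (x axis), with WT libraries in blue, KO libraries in red, circles for replicate 1 and squares for replicate 2; the vertical line separates border and yolk sac macrophage genes. KO replicate 1 is the highest library for Spi1 (17 counts), Fcgr1 (14), Dab2 (36) and Ms4a7 (19), while Lcp1, Sall1, Coro1a and P2ry12 do not.

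**Figure D4:**
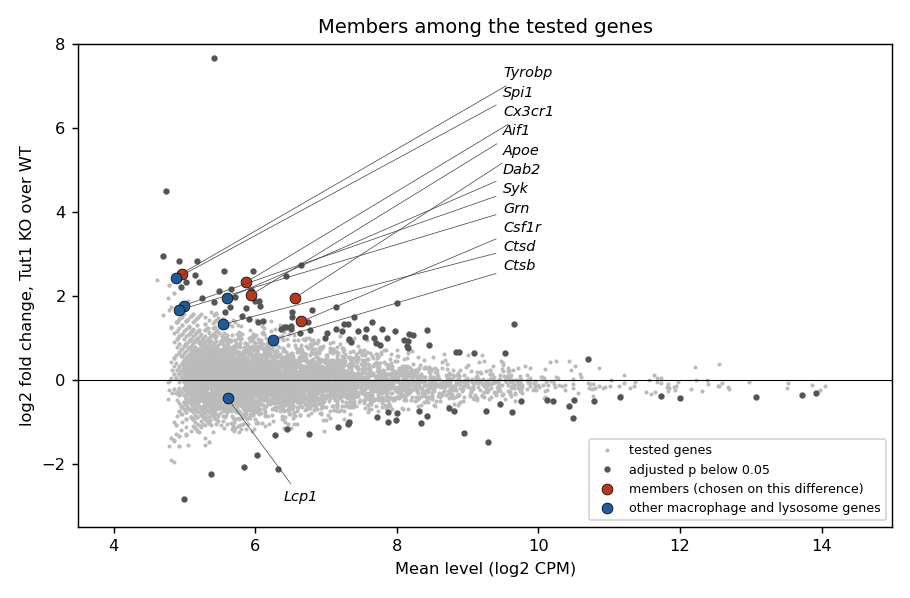
Log2 fold change of KO over WT (y axis) against mean level in log2 CPM (x axis) for the 5878 tested genes in grey, with the 121 called genes in dark grey, the 5 tested members in red and named macrophage, signalling and lysosome genes in blue. The 5 members lie above 0 at low to middle levels, near Spi1 (2.42) and Dab2 (1.95), and Lcp1 (-0.44) lies below 0.

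The ligands of the member receptors were hardly counted. Csf1 had 0 and 2 counts in WT against 1 and 0 in KO, Il34 had 0 and 0 in WT against 1 and 1 in KO, and Cx3cl1 had 0 and 1 in WT against 1 and 1 in KO. Differences in the ligands were not detectable at this depth. Downstream of Tyrobp and Fcer1g, Syk had 3 and 5 counts in WT against 17 and 10 in KO, with no overlap (log2 fold change 1.77 ± 0.56 SE, adjusted p = 0.0917, edgeR). Fyn, a kinase that neurons also use, had 12 and 12 counts in WT against 14 and 13 in KO, and the adaptor Grb2 had 3 and 4 in WT against 3 and 5 in KO. Of 2 genes tested in this list of 12, none was called by edgeR, and 1 had an unadjusted p below 0.05. The summed level of the list was 65.2 ± 6.5 CPM in WT and 103 ± 2.3 in KO (SD, n = 2).

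No complement gene outside the members was called. Cr1l, a membrane regulator that protects embryonic cells from complement, had 30 and 30 counts in WT against 42 and 20 in KO (log2 fold change 0.09 ± 0.30 SE, adjusted p = 0.944, edgeR). C1qbp, named for binding C1q but mainly a mitochondrial protein, had 19 and 11 counts in WT against 11 and 11 in KO (-0.39 ± 0.44 SE, adjusted p = 0.774, edgeR). None of the 2 tested genes was called or had an unadjusted p below 0.05. The protease gene Masp1 had 5 and 10 counts in WT against 1 and 5 in KO. C5ar1, the receptor for the complement fragment C5a on myeloid cells, had 2 and 3 counts in WT against 11 and 4 in KO, and it was too sparse to be tested. The summed level over the 11 listed genes in the table was 181 ± 18.6 CPM in WT and 194 ± 33.7 in KO (SD, n = 2), with overlapping groups.

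Genes of the uptake of dying cells had a summed level of 2081 ± 39.0 CPM in WT and 1912 ± 273 in KO (SD, n = 2), most of it Calr, an endoplasmic reticulum chaperone present in all cells. None of the 4 tested genes was called by edgeR, and 1 had an unadjusted p below 0.05. That gene was Elmo1, part of the engulfment signal to Rac1, with 13 and 24 counts in WT against 46 and 30 in KO (log2 fold change 1.08 ± 0.32 SE, adjusted p = 0.0626, edgeR). Rac1 had 16 and 15 counts in WT against 17 and 15 in KO, and Elmo2 had 6 and 13 in WT against 12 and 6 in KO.

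All 20 listed lysosome genes were in the table, and their summed level was 973 ± 81.9 CPM in WT and 1225 ± 106 in KO (SD, n = 2), a ratio of 1.26 without overlap. None of the 9 tested was called by edgeR, although 4 had an unadjusted p below 0.05 (14.2% over all tested genes), and the median log2 fold change was 0.35. The cathepsin genes Ctsl, Ctsb and Ctsd and the progranulin gene Grn were those 4. Ctsd had 7 and 9 counts in WT against 22 and 17 in KO (1.32 ± 0.43 SE, adjusted p = 0.0969, edgeR). Ctsb had 15 and 18 counts in WT against 36 and 26 in KO (0.95 ± 0.33 SE, adjusted p = 0.138, edgeR). Grn had 1 and 7 counts in WT against 16 and 9 in KO (1.66 ± 0.61 SE, adjusted p = 0.160, edgeR).

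The lysosome genes with the most counts had smaller fold changes. Ctsl, the most abundant, had 103 and 144 counts in WT against 191 and 122 in KO (log2 fold change 0.39 ± 0.18 SE, adjusted p = 0.313, edgeR). The protective protein gene Ctsa had 56 and 53 counts in WT against 55 and 32 in KO, and the late endosome gene Cd63 had 40 and 41 in WT against 57 and 37 in KO. Every cell type of the tissue has lysosomes, so these counts are not those of macrophages alone.

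The other genes of lipoprotein and sterol handling gave no call. Of 31 listed 23 were in the table and 15 were tested, none was called by edgeR, 1 had an unadjusted p below 0.05, and the median log2 fold change was -0.09. The summed level was 1871 ± 14.7 CPM in WT and 1824 ± 72.8 in KO (SD, n = 2). Fdft1, the squalene synthase gene, had 235 and 258 counts in WT against 239 and 181 in KO (-0.18 ± 0.15 SE, adjusted p = 0.661, edgeR). Lrp8, a receptor for ApoE and reelin on neurons, had 58 and 60 counts in WT against 59 and 53 in KO (-0.02 ± 0.24 SE, adjusted p = 0.984, edgeR). The sorting receptor gene Sorl1, the 1 with an unadjusted p below 0.05, had 44 and 30 counts in WT against 63 and 57 in KO (0.75 ± 0.26 SE, adjusted p = 0.141, edgeR).

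Genes of the phagocytic state that microglia take on around dying cells, in which Apoe and Trem2 take part, had a summed level of 384 ± 17.9 CPM in WT and 362 ± 4.2 in KO (SD, n = 2). None of the 2 tested was called or had an unadjusted p below 0.05. Those were the fatty acid-binding protein gene Fabp5, with 74 and 75 counts in WT against 62 and 59 in KO, and the lipoprotein lipase gene Lpl, with 54 and 48 in WT against 54 and 36 in KO. These 2 genes made up most of the counts of the list. Neural cells of this tissue express both, so the sum says little about microglia. Lgals3, the galectin of activated macrophages, had 1 and 1 counts in WT against 9 and 7 in KO and was too sparse to be tested.

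Markers of other cell types that the dissection could hold were summed in the same way. Radial glia, the stem cells of the pallium, had 1308 ± 106 CPM in WT and 1211 ± 21.3 in KO (SD, n = 2). The groups were barely apart, with 1226 CPM in the higher KO library against 1233 CPM in the lower WT library. Of the 10 markers 2 lay above both WT libraries in both KO libraries, and 1, Ttyh1, lay below. Endothelial markers, all 12 in the table, had 83 and 100 counts in WT against 168 and 119 in KO, with levels of 251 to 279 CPM in WT and 413 to 446 CPM in KO, a ratio of 1.62. None of the 3 tested was called by edgeR, and 1 had an unadjusted p below 0.05, Egfl7, with 40 and 45 counts in WT against 78 and 54 in KO. The endothelial receptors Flt1 (17 and 16 against 26 and 19 counts) and Pecam1 (9 and 8 against 15 and 13) were the next in count. The summed vessel level was thus higher in both KO libraries, as was that of the microglia genes, and its part in the result was not tested.

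Mesenchyme markers, 8 of 9 in the table, had a summed level of 112 to 279 CPM in WT and 320 to 484 CPM in KO. Col1a2, a chain of type I collagen, rose from 3 and 7 counts in WT to 27 and 16 in KO (log2 fold change 2.12 ± 0.47 SE, adjusted p = 0.00742, edgeR), 1 call of 4 tested. This call, too, was lost without WT replicate 1 (adjusted p = 0.127), KO replicate 1 (0.347) or KO replicate 2 (0.0840), and the log2 fold change was 2.77 without WT replicate 2. Col1a1 had 18 and 57 counts in WT against 96 and 50 in KO, Col3a1 had 8 and 8 in WT against 19 and 9 in KO, and Twist1 had 4 and 13 in WT against 16 and 9 in KO. Whether meninges were kept on the dissected tissue is not given in the sources used here, and the part of mesenchyme in the macrophage counts was not tested.

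Neuron markers had 1275 ± 25.8 CPM in WT and 1943 ± 139 in KO (SD, n = 2), with 2 calls of 8 tested. Mapt, the microtubule protein tau, rose from 33 and 43 counts to 162 and 101 (log2 fold change 1.83 ± 0.22 SE, adjusted p = 8.85e-07, edgeR) and Dcx, the microtubule protein of young neurons, from 36 and 36 to 86 and 70 (1.17 ± 0.24 SE, adjusted p = 0.00461, edgeR). Dcx had an adjusted p of 0.160 without KO replicate 1 and 0.0899 without KO replicate 2. Of the others, the most counted were Map2 (249 and 247 against 318 and 206 counts), Elavl4 (43 and 46 against 66 and 55) and Tubb3 (36 and 33 against 55 and 23), and none of the 3 passed the test. Ttyh1, a channel-like protein of radial glia, fell from 40 and 59 counts to 21 and 18 (-1.28 ± 0.30 SE, adjusted p = 0.0108, edgeR), 1 call of 8 radial glia markers and lost when WT replicate 2 (adjusted p = 0.117), KO replicate 1 (0.312) or KO replicate 2 (0.149) was left out. The most abundant radial glia markers were Pax6 (137 and 119 against 132 and 93 counts), Nes (103 and 110 against 111 and 89) and Vim (52 and 98 against 88 and 63), and none of the 3 passed the test.

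The levels of the remaining cell types overlapped between the groups or rested on very few counts. Erythroid markers had a summed level of 1345 to 1771 CPM in WT and 1434 to 2153 CPM in KO, with Hbb-bh1, an embryonic globin, falling from 16 and 47 counts to 4 and 13 (log2 fold change -1.80 ± 0.46 SE, adjusted p = 0.0279, edgeR). The log2 fold change of Hbb-bh1 was -0.92 without WT replicate 2 (adjusted p = 0.565), -1.0 without KO replicate 1 (0.630), -3.06 without KO replicate 2 (0.0899) and -2.34 without WT replicate 1 (1.45e-05). Another embryonic globin, Hba-x, went the other way, with 15 and 24 counts in WT against 43 and 36 in KO (1.07 ± 0.31 SE, adjusted p = 0.0563, edgeR). The globin genes Hba-a1 and Hba-a2 share near-identical transcripts and their separate counts are uncertain. The choroid plexus list had 34 and 32 counts in WT against 123 and 29 in KO, nearly all of it Ttr, the transthyretin gene, with 31 and 26 counts in WT against 114 and 29 in KO. Ttr was called by edgeR (1.33 ± 0.32 SE, adjusted p = 0.0152), but without KO replicate 1 the log2 fold change was 0.28 (adjusted p = 0.864). It was 1.14 without WT replicate 2 (adjusted p = 0.0518).

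Mural cell markers had 8 and 47 counts in WT against 52 and 22 in KO, mostly Acta2, the smooth muscle actin gene, with 5 and 43 in WT against 43 and 15 in KO. Granulocyte and mast cell markers had 0 and 0 counts in WT against 4 and 2 in KO, 5 of those 6 from Mpo, a peroxidase of myeloid progenitors and granulocytes. Megakaryocyte markers had 0 and 1 in WT against 4 and 0 in KO, and the 6 lymphocyte markers were not analysed here. KO replicate 1 was thus the highest library for the members' sum, the border macrophage genes, Col1a1 and Ttr alike. This was not particular to them, since it was also the highest in CPM for the further microglia, lysosome, neuron, endothelial, mesenchyme, mural cell and erythroid sums.

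**Figure D5:**
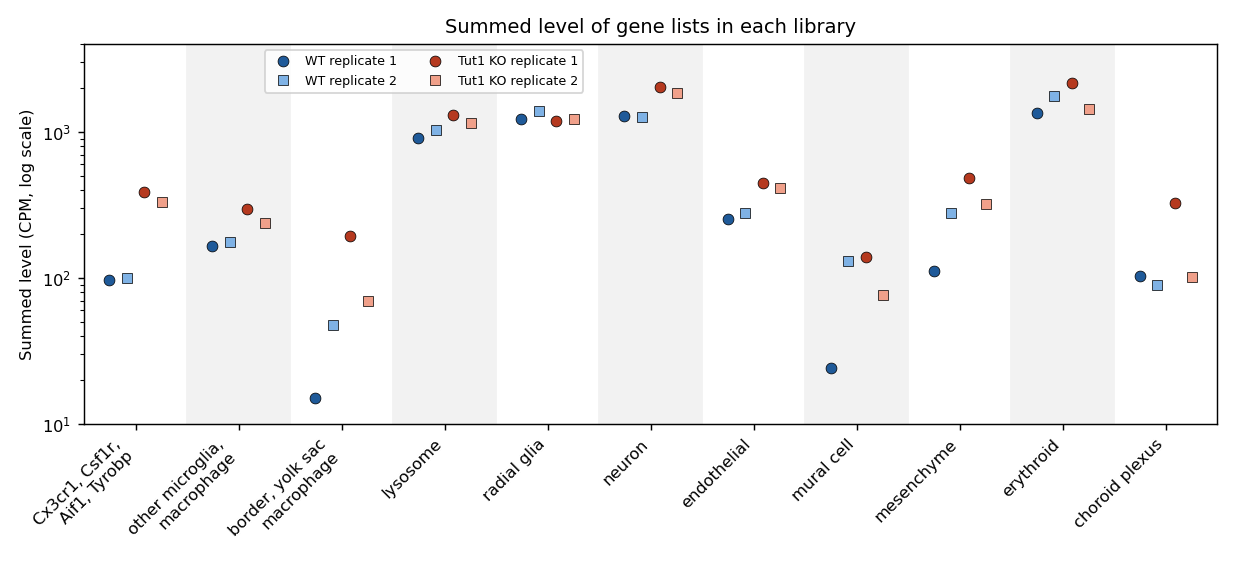
Summed level in CPM (y axis, log scale) of Cx3cr1, Csf1r, Aif1 and Tyrobp and of 10 gene lists (x axis) in each library, WT in blue and KO in red, circles for replicate 1 and squares for replicate 2. The 4 microglia genes have means of 98.7 CPM in WT and 358 in KO. The 2 macrophage lists and the lysosome, neuron, endothelial and mesenchyme lists also lie higher in both KO libraries. The radial glia list lies barely lower in both, and the mural cell, erythroid and choroid plexus lists overlap between the groups.

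Among the members, C1qa alone was at 0 in both WT libraries and counted in both KO libraries. Outside the members 280 genes had this pattern and 190 genes had the reverse. Ranked by their lower KO count, the 5 leading genes were Dlx1as (31 and 19 counts in KO), an antisense RNA of the Dlx1 locus of inhibitory neurons, the immunoproteasome subunit gene Psmb8 (12 and 6), the potassium channel gene Kcnq3 (7 and 5), the ciliary gene Cfap52 (10 and 4) and the stress kinase gene Mapkapk3 (7 and 4).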

How the data were processed

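The authors sequenced poly(A)-enriched RNA of 4 libraries, 2 WT and 2 Tut1_KO, as Nanopore long reads, aligned them with minimap2 (v2.24) to the Ensembl (v102) mouse transcriptome and processed them with FLAIR (v2.0.0). The deposited table holds raw read counts per gene with no normalization. The sources used here do not say how isoforms were added up per gene, what became of multi-mapping reads, or if counting took account of strand. Symbols and positions came from GENCODE on GRCm38 and matched 16429 of 16449 identifiers. Isoform and splicing files were not used here.

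The count test was edgeR (version 4.0.16, under R version 4.3.3). The filter filterByExpr (minimum count 10, minimum total 15) left 5878 genes, which were scaled by TMM and compared with glmQLFit and glmQLFTest, two-sided, with Benjamini-Hochberg adjustment over all tested genes. The biological coefficient of variation was 10.5%, and the 2 residual degrees of freedom were joined by 37.5 prior degrees of freedom. The procedure was tested on simulated data. CPM used TMM-scaled totals of the tested genes. Standard errors are the absolute log2 fold change over the square root of F. Counting intervals and the floor of 3 counts leave out all other error. The members and gene lists were chosen with earlier results of these data known. Named genes were all members, in each other list the genes past the threshold (at most 5) and the 3 others with the highest counts, and every gene of the further microglia list with at least 3 counts. Some genes that this rule names are not given with values. Tut1, C1qbp, Csf1, Il34, Cx3cl1, Spi1, P2ry12 and Tmem119 were always named. A further always-named gene and a flanking gene are not reported here. Other genes given with values (Syk, Ctsb, Ctsd, Grn, Sorl1, Lgals3, C5ar1, Elmo2, Hba-x, the further border macrophage genes and the flanking and overlapping genes) were added after their values were seen. Alternatives were DESeq2 1.42.0, its size factors, total counts, no filter on low counts, thinning to the smallest library, the replicate number as a block and each library left out.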

Additional observations from a re-analysis of the deposited data

How the results depend on the processing

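The count of called genes, 121 by edgeR, was 12 with DESeq2, 76 with the replicate number as a block, 38 after thinning to the smallest library and 3 to 108 with 1 library left out, lowest without KO replicate 1. Other scalings and no filter kept the total within 1.5 times, but with total counts alone the split went from 82 higher and 39 lower to 105 and 24. The replicate numbers are only numbers: deviations of same-numbered libraries were uncorrelated (r = -0.06), so no pairing is shown. With the replicate block 0 further microglia genes and 0 border macrophage genes were called, against 1 each, and the other lists kept their counts. With DESeq2 no gene of the further microglia, border macrophage, radial glia, erythroid, mesenchyme or choroid plexus lists was called (0 each, against 1) and 1 neuron marker was, against 2. Thinning gave the same counts, 0 and 1. DESeq2 gave no adjusted p for Spi1, Dab2, Col1a2, Hbb-bh1 and Tut1, so it did not call them, and it gives no test to set beside these 5 calls. Without the filter 2 border macrophage genes and 2 mesenchyme markers were called. With total counts 4 neuron markers and 2 erythroid markers were called. With 1 library left out, counts ran from 0 to 1 for the further microglia, border macrophage, clearance, radial glia, mural cell, erythroid and choroid plexus lists, from 1 to 4 for neuron markers and from 0 to 2 for mesenchyme markers. The 1 erythroid call was of a lower gene with all libraries and of a higher gene without WT replicate 2. The cause of these changes was not tested.

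The members' summed log2 ratio of 1.90 was 2.15 after thinning, and that without Apoe, 1.88, was 2.12. With 1 library left out they ran from 1.74 to 2.05 and from 1.75 to 2.01. The Apoe log2 ratio moved by less than the replicate SD under all 7 settings. Fcer1g, C1qa, C1qb, C1qc and Trem2 had too few counts for a statement on a difference.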
